A study of Mus musculus with 16 samples.

Results

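The genes described here are 10 members of the BCL2 family, the proteins that decide at the mitochondrion whether a cell lives or dies. They were taken by symbol from a count table of 54347 genes, and all 10 were found in it. Lineage-negative bone marrow cells were sorted from mice that lack the upstream regulatory element (URE) of *Spi1*, the gene of the myeloid transcription factor PU.1, and from wild-type (WT) littermates. Low-input RNA-seq was run on 4 mice per genotype and cell type, which gave 4 groups and 16 libraries. URE LSKs and WT LSKs are Sca-1+ c-Kit+ cells, the fraction that holds stem cells and multipotent progenitors. URE GMPs and WT GMPs are Sca-1- c-Kit+ Cd16/32+ cells, the granulocyte-monocyte progenitors. All mice were of C57BL/6 background, 8 to 12 weeks old and untreated in these libraries. The URE was deleted in the germline, so every cell of a URE mouse carried the deletion and no cell type was targeted. Whether the LSKs and the GMPs with 1 replicate number came from the same mouse was not given in the sources used here.

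BCL2 proteins fall into 3 roles. Guardians (*Bcl2*, *Bcl2l1* for Bcl-xL, *Mcl1*, and the A1 copies *Bcl2a1a*, *Bcl2a1b* and *Bcl2a1d*) keep the outer mitochondrial membrane intact. Effectors (*Bax*, *Bak1*) perforate it and release cytochrome c, and BH3-only proteins (*Bcl2l11* for Bim, *Bbc3* for Puma) sense stress or loss of cytokine and set the effectors free by occupying the guardians. In blood formation, Mcl1 is needed by stem cells, Bcl-xL by erythroid cells, A1 is abundant in myeloid cells, and Bim and Puma remove progenitors deprived of growth factors. Transcript levels say nothing of the binding between these proteins or of their turnover, which is fast for Mcl1.

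The 3 A1 copies lie close together on chromosome 9. Stretches upstream of their RefSeq start sites (GRCm38.p6) are shown because the copies share them, with the letters GAGGAAGT, the core of a PU.1-type ETS site, in capitals.
Bcl2a1a: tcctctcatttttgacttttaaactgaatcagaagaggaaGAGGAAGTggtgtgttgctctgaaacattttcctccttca
Bcl2a1b: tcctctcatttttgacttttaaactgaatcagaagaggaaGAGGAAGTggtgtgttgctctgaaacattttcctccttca
Bcl2a1d: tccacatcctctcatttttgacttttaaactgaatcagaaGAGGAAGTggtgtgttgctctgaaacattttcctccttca
These 80-base windows lie at chr9:88956776-88956855 on the plus strand for *Bcl2a1a*, at chr9:89199085-89199164 on the plus strand for *Bcl2a1b* and at chr9:88731915-88731994 on the minus strand for *Bcl2a1d*. The capitals start 104 bases before the start site in *Bcl2a1a* and *Bcl2a1d* and 148 bases before it in *Bcl2a1b*. The windows of *Bcl2a1a* and *Bcl2a1b* were identical over 80 of 80 bases, and that of *Bcl2a1d* matched them in all 74 aligned bases, with 12 gap bases. It holds GAGGAA 1 time where they hold it 2 times. The other gap bases lie at the window edge, because each window was cut at a fixed distance from the capitals. Among 32851 RefSeq promoters, 2.44% hold GAGGAAGT on either strand within 250 bases upstream of the start. Of the other members, *Bak1* has the letters on the opposite strand from 22 bases before its start site, and *Bcl2*, *Bcl2l1*, *Mcl1*, *Bax*, *Bcl2l11* and *Bbc3* do not have them in this window. The further copy *Bcl2a1c*, which had 0 counts in all 16 libraries, has them from 214 bases before its start site. A match of letters is a description of the sequence and was not tested for binding.

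Total counts per library lay between 20028302 and 29128858, and the unit used for levels is CPM, the count of a gene relative to its library's total after TMM normalization. *Spi1* itself had 2.93, 4.48, 3.62 and 1.16 CPM in the 4 URE LSKs against 129, 69.6, 137 and 165 CPM in the WT LSKs, and 17.3, 27.5, 23.1 and 15.2 CPM in URE GMPs against 141, 87.6, 180 and 147 CPM in WT GMPs, so that it was low in every library labelled URE. The sort also showed in the data: the summed level of 6 stem cell markers was 989 to 1429 CPM over the LSKs and 98.1 to 257 CPM over the GMPs. Marker lists were also compared between the genotypes. The stem cell markers had 98.1 to 196 CPM in URE against 195 to 257 CPM in WT GMPs (median log2 fold change -0.83) and 989 to 1227 against 1205 to 1429 CPM in LSKs (median -0.02). Of these 6 markers, edgeR called 0 in both cell types, beside 8.30% of all genes in GMPs and 6.14% in LSKs. At an unadjusted p under 0.05 there were 3 in GMPs and 1 in LSKs, beside 20.3% and 15.3% of all genes. DESeq2 called 2 in GMPs, beside 1112 genes higher and 883 lower of 27649, and 1 in LSKs, beside 677 higher and 954 lower of 28861. In a fit with the replicate number of the labels as a block, 3 and 1 fell, beside 16.3% and 9.46% of all genes. Of 7 erythroid and megakaryocyte markers, *Itga2b* rose in URE LSKs (median of the list 0.76, summed level 71.9 to 409 against 82.5 to 114 CPM), where with the block *Car1* fell. DESeq2 called 3 in LSKs, which differed in direction: *Itga2b*, *Hba-a1* and *Car1* had log2 fold changes of 1.88, 2.29 and -1.10 by edgeR. In GMPs edgeR and DESeq2 called 0 of these 7 markers, with 0 at an unadjusted p under 0.05 (median 0.13, 135.6 to 746 against 307.5 to 690.2 CPM). Of 6 monocyte markers, 3 fell in URE LSKs (summed level 13.8 to 32.2 CPM against 60.0 to 115 CPM in WT) and 4 in URE GMPs (381.5 to 1807 against 1599 to 2224 CPM). In the fit with the block 4 fell in LSKs and 5 in GMPs, beside 9.46% and 16.3% of all genes. Of 7 neutrophil markers, 2 rose in URE LSKs (median log2 fold change 0.82) and 1 in URE GMPs (1.84), beside 6.14% and 8.30% of all genes called. With the block 5 and 6 rose, beside 9.46% and 16.3% of all genes. Their summed level in GMPs was 67240 to 143800 against 49240 to 67770 CPM. Of 7 T and NK cell markers, *Gzmb* and *Trat1* rose in both cell types, and the summed level was 45.2 to 86.5 CPM in URE against 5.53 to 9.98 CPM in WT LSKs and 82.5 to 305 against 2.902 to 8.92 CPM in GMPs, while *Cd4* fell in URE LSKs and *Cd3e*, *Cd3d* and *Cd8a* were under 0.5 CPM in every library. The B cell marker *Cd79b* and the antigen presentation gene *Cd74* fell in both cell types, *Il7r* and *H2-Aa* fell in GMPs and, with the block, in LSKs, and *Pax5* was under 0.5 CPM throughout. Of 5 mast cell and basophil markers, *Mcpt8* and *Cpa3* rose in LSKs (4 tested), while in GMPs *Mcpt8* rose and *Prss34* fell (5 tested, median log2 fold change -0.01). Transcripts of Y-linked genes were present in 3 of 4 WT and in 1 of 4 URE libraries of both cell types. These were replicates 1, 2 and 3 of WT and replicate 1 of URE. Replicates 1 and 4 thus matched in this between the genotypes. Replicates 2 and 3 had the transcripts in WT and not in URE, so among them alone genotype and sex cannot be told apart. In bulk samples, fewer cells of a type and less RNA per cell cannot be told apart, and the part of cell composition and of sex in the differences below was not tested beyond the values given.

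Levels of different genes were compared per kilobase of merged exons. In each group *Bax* was the highest member, from 37.8 ± 5.83 CPM per kb (SD, n = 4) in WT LSKs to 69.1 ± 7.91 CPM per kb (SD, n = 4) in WT GMPs, and *Bak1* was second with 18.1 to 31.4 CPM per kb on average. *Bcl2*, *Bcl2l1* and *Mcl1* followed between 6.59 and 13.1 CPM per kb, and in every group the ranges of these 3 guardians overlapped. Within libraries, *Bcl2* was below *Bcl2l1* in 4 of 4 WT LSKs, 4 of 4 URE LSKs and 3 of 4 URE GMPs but in 1 of 4 WT GMPs, and *Bcl2l1* was below *Mcl1* in 2 of 4 libraries of each group. *Bcl2a1b* lay between 1.30 and 2.61 CPM per kb. *Bcl2l11*, *Bbc3*, *Bcl2a1a* and *Bcl2a1d* had at most 1.39 CPM per kb on average. On average each effector was more abundant than any single guardian, although the ranges of *Bak1* and of *Bcl2*, *Bcl2l1* and *Mcl1* overlapped in every group.

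**Figure D1:**
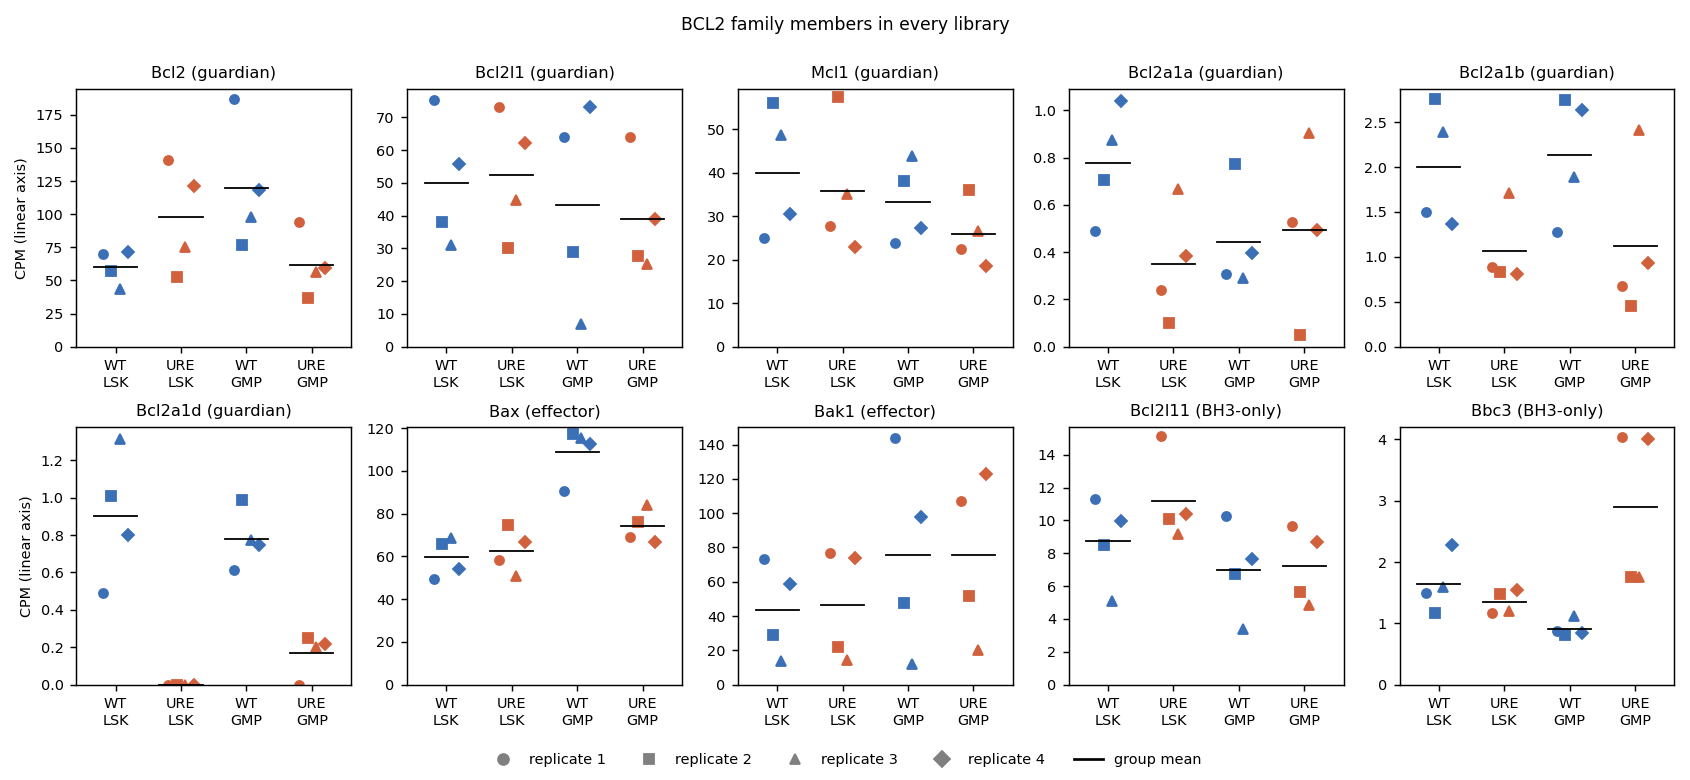
CPM (scaled counts, linear axes from 0) of the 10 members in each of the 16 libraries, with WT in blue, URE in orange, marker shapes for the replicate number and a line at the group mean. Bcl2a1d is at 0 in all 4 URE LSKs, Bbc3 is above every WT GMP in all 4 URE GMPs, and replicates 1 and 4 lie above replicates 2 and 3 in Bcl2, Bcl2l1, Bak1 and Bcl2l11 in every group.

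The first question was which members differ between URE and WT LSKs. Of the 10 members, all of which passed the filter on low counts, 1 was called lower and 0 higher, where a call needs an adjusted p under 0.05 in edgeR's quasi-likelihood test and a fold change above 1.5. Over all 15154 genes tested, 6.14% were called, so 1 of 10 is close to the background. Blocking on the replicate number left the count at 1, against 9.46% of all genes. The median log2 fold change of the 10 members was -0.08, also with *Bcl2a1d* set at its bound, beside 0.00 for all genes. Its sign was not kept: it lay at -0.20 without URE replicate 1 or 2 or WT replicate 1 and at 0.03 with the A1 copies summed or with at least 20 counts asked. By role the median was -0.57 over the 6 guardians, also with the bound, 0.04 over the effectors and 0.00 over the BH3-only genes. Of these guardians, *Bcl2a1a*, *Bcl2a1b* and *Bcl2a1d* are near-identical copies. With the copies summed, the guardian values were 0.65 for *Bcl2*, 0.03 for *Bcl2l1*, -0.19 for *Mcl1* and -1.42 for the A1 sum.

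The member called was *Bcl2a1d* (ENSMUSG00000099974, chromosome 9, 88723285 to 88731914, protein coding), an A1 copy. It had 15, 30, 33 and 20 counts in WT LSKs and 0 counts in each URE LSK. The groups did not overlap (exact two-sided permutation p = 0.0286, below which 4 against 4 mice cannot go). With a floor of 3 counts over the group, *Bcl2a1d* was at least 30.2-fold lower in URE LSKs (edgeR, adjusted p = 0.0063; 4.8e-07 to 0.0495 over the alternatives in which it was tested). It was not tested when at least 20 counts were asked of each library of a group.

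How far *Bcl2a1d* can be told from its neighbours matters for this result. The GENCODE M21 transcript of *Bcl2a1d* is 98.8% identical to that of *Bcl2a1a* and 99.1% to that of *Bcl2a1b*, and 73.9% and 68.4% of its 31-base words occur in them. Reads were shared out among the copies by the authors' quantification, so values of single copies are uncertain. *Bcl2a1d* took 98 of 404 A1 reads in WT LSKs, 24.3% (95% exact binomial interval 20.2 to 28.7%), and 0 of 141 in URE LSKs, which allows a share of up to 2.13% by the limit of 3 counts and 2.58% by the exact interval. In GMPs it took 68 of 292 A1 reads in WT, 23.3% (18.6 to 28.6%), and 13 of 140 in URE, 9.29% (5.04 to 15.4%). These intervals cover counting error only. In LSKs the whole interval of WT lay above the limit for URE, and each of the 4 URE libraries had 0 reads of *Bcl2a1d*. In GMPs the lower share holds for the pooled reads only. By library *Bcl2a1d* took 0 of 25, 5 of 15, 4 of 70 and 4 of 30 A1 reads in URE and 14 of 50, 23 of 105, 16 of 61 and 15 of 76 in WT GMPs, so that URE replicate 2 had a higher share than every WT library and URE replicate 3 gave 70 of the 140 pooled reads.

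Summed over the 3 copies, A1 had 1.12, 0.937, 2.37 and 1.20 CPM in URE LSKs and 2.47, 4.47, 4.58 and 3.21 CPM in WT LSKs. Every URE LSK lay below every WT LSK (exact two-sided permutation p = 0.0286), yet at -1.42 on the log2 scale (standard error 0.42) the sum missed the threshold over all genes (edgeR, adjusted p = 0.094). *Bcl2a1b* (ENSMUSG00000089929, chromosome 9, 89199209 to 89207827) had 0.814 to 1.71 CPM in URE and 1.36 to 2.75 CPM in WT LSKs. *Bcl2a1a* (ENSMUSG00000102037, chromosome 9, 88956900 to 88962419) had 0.10 to 0.67 CPM against 0.488 to 1.04 CPM. The groups overlapped in each copy, both copies were lower in the URE library in 4 of 4 pairs of the same number, and their log2 fold changes of -0.95 and -1.19 did not pass (edgeR, adjusted p = 0.35 and 0.41). The annotation also places the exons of a gene model, *Gm29094*, over 401 bases of *Bcl2a1b*; it had 0 counts here. A1 has a further copy, *Bcl2a1c*, with 0 counts in all 16 libraries.

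*Bcl2* (ENSMUSG00000057329, chromosome 1, 106538178 to 106714274), the guardian that the drug venetoclax binds, had 141, 52.9, 75.0 and 121 CPM in URE LSKs and 69.7, 56.8, 43.5 and 71.2 CPM in WT LSKs. Replicates 1, 3 and 4 of URE lay above every WT LSK, while replicate 2 lay among them. On the log2 scale the difference was 0.65 (standard error 0.30) and missed the threshold (edgeR, adjusted p = 0.35, or 0.10 with the block). The exact two-sided permutation p was 0.171. It was 0.84 among replicates 1 and 4 alone (adjusted p = 0.030) and 0.34 among replicates 2 and 3 alone (adjusted p = 1.0, both by edgeR), and over all alternatives the adjusted p ran from 0.030 to 1.0. *Bcl2* was higher in the URE library in 3 of 4 pairs of the same number.

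The other guardians showed no difference larger than the spread between LSK samples. For *Bcl2l1* (ENSMUSG00000007659, chromosome 2, 152780668 to 152831728), the 4 URE LSKs had 73.0, 30.3, 44.7 and 62.2 CPM and the WT LSKs 75.3, 38.1, 30.97 and 55.6 CPM, a log2 fold change of 0.03 (standard error 0.34). *Mcl1* (ENSMUSG00000038612, chromosome 3, 95658788 to 95663176) had 27.8, 57.3, 35.1 and 22.9 CPM in URE and 24.9, 55.9, 48.6 and 30.5 CPM in WT LSKs, a log2 fold change of -0.19 (standard error 0.35). The groups overlapped fully in both genes (edgeR, adjusted p = 0.99 and 0.93).

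Effectors and BH3-only members did not pass in LSKs either. *Bax* (ENSMUSG00000003873, chromosome 7, 45461697 to 45466898) had 58.4, 74.5, 51.0 and 66.7 CPM in URE and 49.4, 65.8, 68.6 and 54.2 CPM in WT LSKs (log2 fold change 0.03, standard error 0.19). *Bak1* (ENSMUSG00000057789, chromosome 17, 27019810 to 27029009) had 76.8, 22.2, 14.2 and 73.7 CPM in URE and 73.4, 28.96, 13.7 and 58.4 CPM in WT LSKs (log2 fold change 0.05, standard error 0.62). In *Bak1*, replicates 1 and 4 lay above replicates 2 and 3 in both genotypes. *Bcl2l11* (ENSMUSG00000027381, chromosome 2, 128126038 to 128162547) had 15.1, 10.1, 9.17 and 10.4 CPM in URE and 11.3, 8.53, 5.09 and 9.98 CPM in WT LSKs; it was higher in the URE library of 4 of 4 pairs, by 0.32 on the log2 scale (standard error 0.30). *Bbc3* (ENSMUSG00000002083, chromosome 7, 16308393 to 16318205) had 1.16 to 1.54 CPM in URE and 1.18 to 2.28 CPM in WT LSKs. Adjusted p for these 4 genes lay between 0.78 and 0.99 (edgeR).

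**Figure D2:**
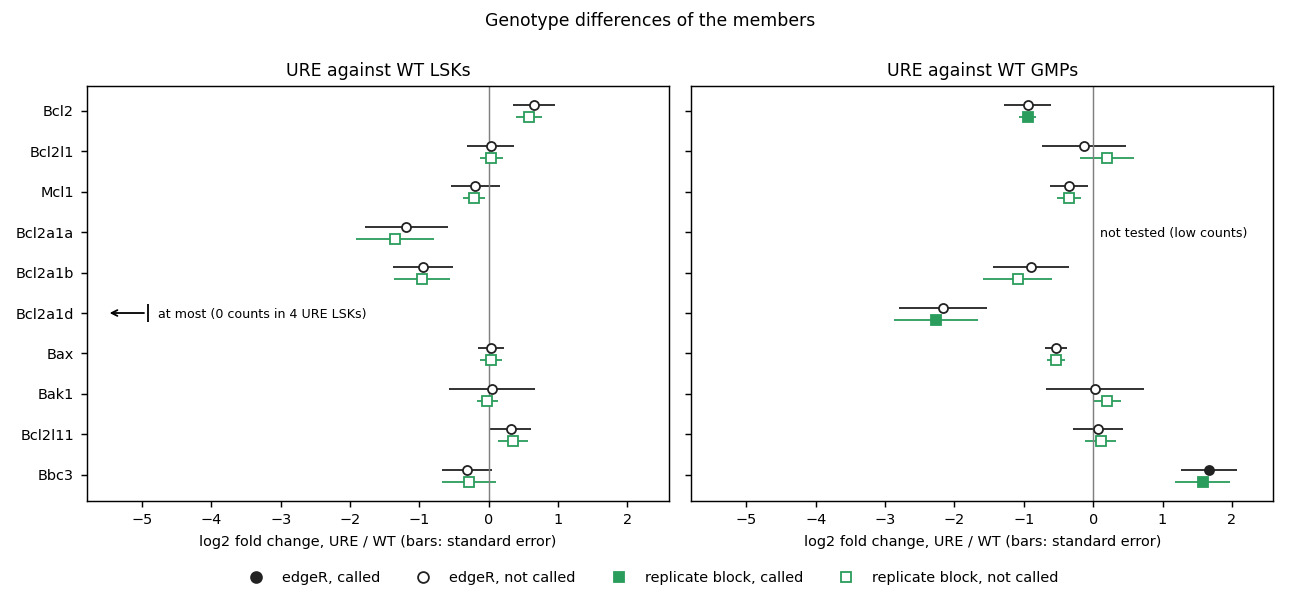
Log2 fold change of each member, URE over WT, with its standard error, in LSKs and in GMPs; circles are edgeR without and squares edgeR with the replicate number as a block, filled where called, and the arrow marks the bound for Bcl2a1d in LSKs. In GMPs Bbc3 lies at 1.67 and Bcl2 at -0.95, with Bcl2 and Bcl2a1d called with the block and not without it.

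GMPs were compared next. Of the 9 members that passed the filter (*Bcl2a1a* did not), 1 was called higher and 0 lower in URE GMPs, where 8.30% of 13829 genes were called. With the replicate block, 1 member was called higher and 2 lower, where 16.3% of all genes were called. The median log2 fold change was -0.35 over the 9 members and 0.01 over all genes. It was -0.15 without WT replicate 4, -0.21 without WT replicate 1, -0.47 without URE replicate 1 and -0.24 with the A1 copies summed. By role the median was -0.89 over the 5 guardians tested, of which *Bcl2a1b* and *Bcl2a1d* are near-identical copies, -0.26 over the effectors and 0.87 over the BH3-only genes.

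*Bbc3*, which encodes the BH3-only protein Puma, a target of p53, was the member called without the block. It had 84, 35, 35 and 73 counts in URE GMPs and 20, 19, 23 and 17 counts in WT GMPs, or 4.04, 1.76, 1.76 and 4.001 CPM against 0.879, 0.815, 1.11 and 0.845 CPM. All 4 URE GMPs lay above all 4 WT GMPs (exact two-sided permutation p = 0.0286), and replicates 1 and 4 of URE stood well above replicates 2 and 3. *Bbc3* rose in URE GMPs by a log2 fold change of 1.67 (standard error 0.40; edgeR, adjusted p = 0.033). Among replicates 1 and 4 alone it was 2.20 (adjusted p = 0.020), and among replicates 2 and 3 alone 0.89 (adjusted p = 0.65, both by edgeR). Replicates 2 and 3 also differed between the genotypes in Y-linked transcripts, and replicates 1 and 4 did not. Adding Y-linked expression as a covariate also ended the call (log2 fold change 1.81, edgeR, adjusted p = 0.067). Left out 1 at a time, URE GMP replicates 1 and 4 and WT GMP replicates 1, 2 and 4 each ended it, with adjusted p of 0.10, 0.11, 0.080, 0.098 and 0.093 (edgeR).

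*Bcl2* went the other way. It had 93.9, 36.7, 56.3 and 59.0 CPM in URE GMPs and 187, 76.6, 97.7 and 118 CPM in WT GMPs. The ranges overlapped, but in 4 of 4 pairs of the same number the URE GMP had less, and about the same fraction less. Without the block its change of -0.95 on the log2 scale (standard error 0.34) missed the threshold (edgeR, adjusted p = 0.15; exact two-sided permutation p = 0.0571). With the block it was -0.94 (standard error 0.12) and passed (edgeR, adjusted p = 0.0018; 0.0018 to 0.34 over the alternatives). Among replicates 1 and 4 alone it was -1.01, and among replicates 2 and 3 alone -0.87.

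*Bcl2a1d* had 0, 5, 4 and 4 counts in URE GMPs against 14, 23, 16 and 15 in WT GMPs. The groups did not overlap (exact two-sided permutation p = 0.0286). Its log2 fold change of -2.17 (standard error 0.63) missed the threshold without the block (edgeR, adjusted p = 0.071) and passed with it (-2.26, adjusted p = 0.036; 0.013 to 0.41 over the alternatives). *Bcl2a1b* had 0.674, 0.452, 2.41 and 0.932 CPM in URE and 1.27, 2.74, 1.89 and 2.63 CPM in WT GMPs, with URE replicate 3 among the WT values (log2 fold change -0.89, edgeR, adjusted p = 0.43). *Bcl2a1a* had 1 to 18 counts in URE and 6 to 18 in WT GMPs. Summed, the A1 copies differed by -0.88 on the log2 scale (standard error 0.49; edgeR, adjusted p = 0.38).

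*Bax* was lower in every URE GMP, with 69.1, 76.2, 83.8 and 66.9 CPM against 90.4, 117, 115 and 113 CPM in WT GMPs. The groups did not overlap (exact two-sided permutation p = 0.0286). Its log2 fold change of -0.54 (standard error 0.16), 1.45-fold, stayed below the fold change of 1.5 that a call needs, and its adjusted p was 0.078 without and 0.025 with the block (edgeR; 0.025 to 0.43 over the alternatives). Without WT GMP replicate 1, the lowest WT value, the log2 fold change was -0.62 and *Bax* was called (adjusted p = 0.0499).

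The remaining members did not pass in GMPs in any alternative. *Mcl1* had 22.3, 35.9, 26.6 and 18.6 CPM in URE and 23.9, 38.1, 43.9 and 27.2 CPM in WT GMPs, lower in 4 of 4 pairs and by -0.35 on the log2 scale (standard error 0.28; edgeR, adjusted p = 0.57). *Bcl2l1* had 64.0, 27.6, 25.4 and 38.8 CPM in URE and 63.9, 28.7, 6.92 and 73.2 CPM in WT GMPs. Its value in WT GMP replicate 3 was the lowest of all 16 libraries, and the sign of its log2 fold change (-0.13, standard error 0.61) turned with the block (0.20, edgeR, adjusted p = 0.76). *Bak1* had 107, 51.9, 20.4 and 123 CPM in URE and 144, 47.9, 12.2 and 97.6 CPM in WT GMPs (log2 fold change 0.03, standard error 0.71). *Bcl2l11* had 9.68, 5.67, 4.87 and 8.72 CPM in URE and 10.2, 6.73, 3.39 and 7.65 CPM in WT GMPs (log2 fold change 0.07, standard error 0.37). As in LSKs, replicates 1 and 4 of both genotypes lay above replicates 2 and 3 in *Bak1*.

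From LSKs to GMPs, 2 of 10 members were called higher and 0 lower in WT, where 27.3% of 14767 genes were called. With the replicate block 3 members were called, all higher, where 40.9% of genes were called. *Bax* rose by a log2 fold change of 0.88 (standard error 0.17; edgeR, adjusted p = 0.0052), and all 4 WT GMPs lay above all 4 WT LSKs. *Bcl2* rose by 0.99 (standard error 0.29, edgeR, adjusted p = 0.031), again without overlap. Leaving out WT LSK replicate 1, 2 or 3 or WT GMP replicate 4 raised the adjusted p to 0.052, 0.075, 0.069 and 0.066 and ended the call. Among replicates 2 and 3 alone the change of *Bcl2* was 0.88 and also missed the threshold (edgeR, adjusted p = 0.068). *Bak1* was called with the block (0.60, edgeR, adjusted p = 0.016) and among replicates 1 and 4 alone (0.89, adjusted p = 0.044), with an adjusted p of 0.016 to 0.62 over the alternatives. *Bbc3* was lower in each WT GMP than in each WT LSK but did not pass (log2 fold change -0.84, edgeR, adjusted p = 0.084).

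In URE mice the same step gave 0 calls among the 8 members tested, where 21.8% of 14395 genes were called. At an unadjusted p under 0.05, 1 member (*Bbc3*) was found by edgeR, beside 4973 of all 14395 genes. DESeq2 called the same gene (log2 fold change 1.18, adjusted p = 0.024), beside 1906 genes called higher and 2322 lower of 27987. With the replicate block 1 member rose and 1 fell, where 31.9% of genes were called. The one that fell was *Bcl2* (-0.63, edgeR, adjusted p = 0.0094; 0.0094 to 0.59 over the alternatives), and the one that rose was *Bak1* (0.75, edgeR, adjusted p = 0.0083; 0.0083 to 0.50). *Bax* had a log2 fold change of 0.25 (standard error 0.17; edgeR, adjusted p = 0.33). *Bbc3* was higher in all 4 URE GMPs than in all 4 URE LSKs (1.10, standard error 0.41, edgeR, adjusted p = 0.086). Its change was 1.64 among replicates 1 and 4 alone, where it was called (edgeR, adjusted p = 0.028). It was 0.44 among replicates 2 and 3 alone (edgeR, adjusted p = 0.82). A joint fit of the 16 libraries also called *Bbc3* (1.14, edgeR, adjusted p = 0.025). *Bcl2a1a* and *Bcl2a1d* did not pass the filter in this comparison. The joint fit tested both and called *Bcl2a1d* higher in URE GMPs (edgeR, adjusted p = 0.0047). With the floor of 3 counts over URE LSKs, the difference in *Bcl2a1d* was at least 5.62-fold. It was not called by DESeq2 (adjusted p = 0.094) or by edgeR without a filter (adjusted p = 0.073).

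**Figure D3:**
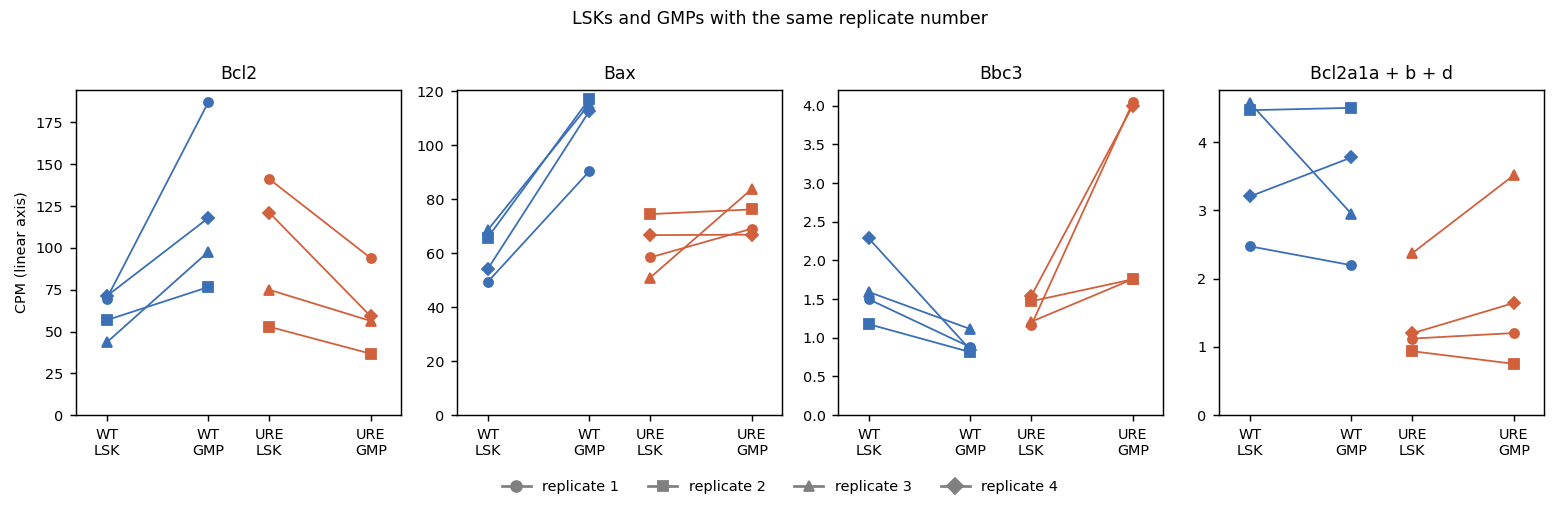
CPM (linear axes from 0) of Bcl2, Bax, Bbc3 and the summed A1 copies in LSKs and GMPs, with a line joining the libraries of the same replicate number within a genotype. Bcl2 climbs in 4 of 4 WT lines and drops in 4 of 4 URE lines; Bbc3 drops in 4 of 4 WT lines and climbs in 4 of 4 URE lines.

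The direction of these steps differed between genotypes for *Bcl2* and *Bbc3*, and the interaction term tests that difference. In WT, *Bcl2* was higher in the GMP in 4 of 4 pairs of the same number, and in URE it was lower in 4 of 4. *Bbc3* did the reverse, lower in 4 of 4 WT pairs and higher in 4 of 4 URE pairs. Without the block, edgeR called 0 of 10 members for the interaction, where 1.22% of 15935 genes were called. An unadjusted p under 0.05 was found for 4 members, beside 1853 of the 15935 genes. DESeq2, also without the block, called 3 members (*Bcl2*, *Bbc3* and *Bcl2a1d*), beside 416 genes with a positive and 258 with a negative interaction of 30947. With the block edgeR called 3, where 6.57% of genes were called. These were *Bcl2*, with an interaction of -1.62 on the log2 scale without the block (standard error 0.48; edgeR, adjusted p = 0.13) and of -1.52 with it (adjusted p = 0.0030; 0.0030 to 0.94 over the alternatives), *Bbc3*, with 1.97 (standard error 0.50; edgeR, adjusted p = 0.070) and 1.86 (adjusted p = 0.033; 0.0068 to 1.0), and *Bcl2a1d* (adjusted p = 0.066 without and 0.033 with the block), for which no size is given because URE LSKs had 0 counts. For *Bax* the interaction was -0.59 (edgeR, adjusted p = 0.28).

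Members with opposite roles were then set side by side as sums of CPM per kb, as a description with no test. The 6 guardians together had 30.3 to 40.9 CPM per kb in URE LSKs, 31.2 to 36.3 in WT LSKs, 28.6 to 44.0 in WT GMPs and 21.5 to 32.2 in URE GMPs. *Bax* and *Bak1* together had 38.2 to 72.9 CPM per kb in URE LSKs and 49.2 to 61.9 in WT LSKs, against 61.7 to 93.5 in URE GMPs and 78.2 to 117 in WT GMPs. In GMPs of URE mice, then, guardian and effector transcripts were both lower on average than in WT, and the ratio of guardians to effectors was 0.324 ± 0.066 (SD, n = 4) in URE and 0.361 ± 0.020 (SD, n = 4) in WT GMPs, with overlapping ranges. In LSKs the ratio was 0.605 ± 0.146 (SD, n = 4) in URE and 0.605 ± 0.059 (SD, n = 4) in WT. It was lower in every GMP than in every LSK of both genotypes.

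The BH3-only side and single pairs were set side by side in the same way. *Bcl2l11* and *Bbc3* together had 3.11, 1.53, 1.44 and 2.97 CPM per kb in URE GMPs and 1.69, 1.22, 0.946 and 1.35 in WT GMPs. Transcripts of *Bcl2* per transcript of *Bcl2l11* numbered 8.51, 5.68, 10.1 and 5.94 in URE GMPs and 16.02, 9.97, 25.3 and 13.5 in WT GMPs on this scale, so that only URE replicate 3 reached the lowest WT value. In LSKs the same ratio was 4.603 to 10.2 in URE and 5.39 to 7.49 in WT. *Bcl2l11* exceeded *Bbc3* in all 4 URE LSKs (ratio 1.79 to 3.44) and in 3 of 4 libraries of WT LSKs and of WT GMPs, but in 0 of 4 URE GMPs (ratio 0.576 to 0.854). The ratios of *Bcl2* to *Bax* and of *Bcl2* to *Mcl1* overlapped between the genotypes. *Bcl2* to *Bax* was 0.083 to 0.234 in URE against 0.113 to 0.356 in WT GMPs, and 0.122 to 0.416 against 0.109 to 0.243 in LSKs. *Bcl2* to *Mcl1* was 0.382 to 1.57 against 0.751 to 2.92 in GMPs, and 0.344 to 1.98 against 0.334 to 1.04 in LSKs. For *Bcl2l11* to *Bbc3*, WT replicate 3 was the WT library with a ratio below 1 in both cell types (0.847 and 0.805).

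**Figure D4:**
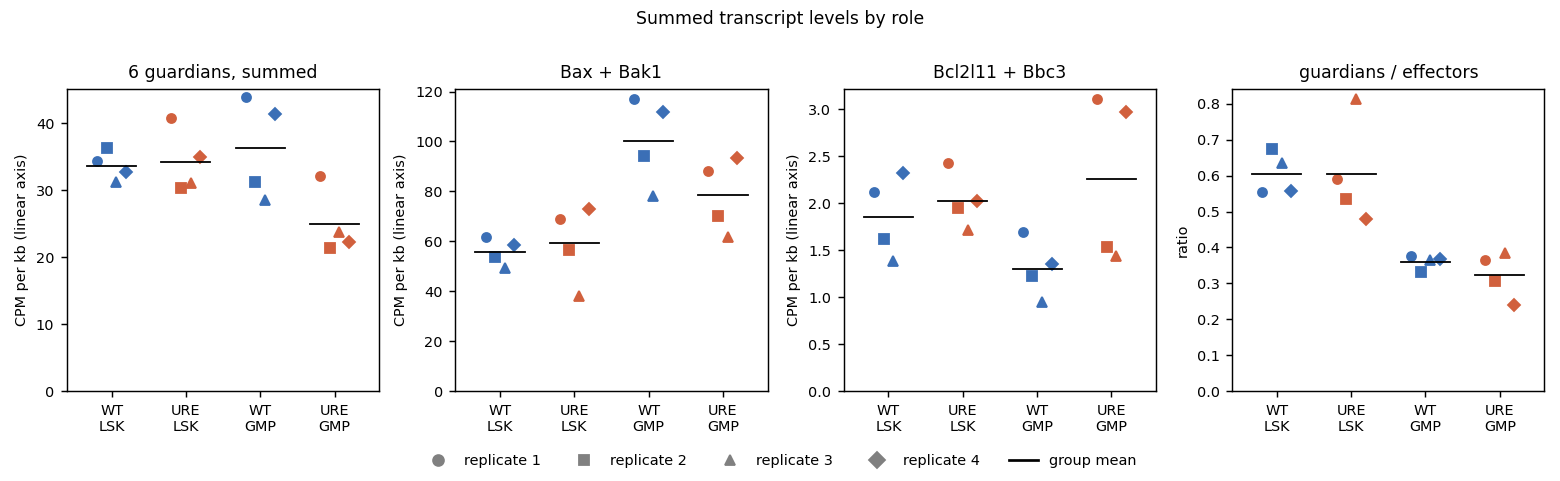
Summed CPM per kb of the 6 guardians, of Bax and Bak1, and of Bcl2l11 and Bbc3, and the ratio of guardians to effectors, in each library, on linear axes from 0 with a line at the group mean. The ratio falls from 0.479 to 0.813 in the LSKs to 0.239 to 0.385 in the GMPs.

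Replicate number moved several members as much as genotype or more. Labels give the mice of each group the numbers 1 to 4. Replicates 1 and 4 both exceeded replicates 2 and 3 in 4 of 4 groups for *Bcl2*, *Bcl2l1*, *Bak1* and *Bcl2l11*, and *Mcl1* showed the reverse in 4 of 4 groups. The ratio of the mean of replicates 1 and 4 to the mean of replicates 2 and 3 was 3.09 to 4.14 for *Bak1*, 1.80 to 3.85 for *Bcl2l1*, 1.40 to 2.05 for *Bcl2*, 1.33 to 1.77 for *Bcl2l11* and 0.530 to 0.654 for *Mcl1*. *Bax* was steadier, with a ratio of 0.770 to 0.997. The highest and the lowest *Bak1* value of WT GMPs were 11.8-fold apart, and those of *Bax* 1.30-fold. Among guardians, then, *Mcl1* was low in the libraries in which *Bcl2* and *Bcl2l1* were high, and the *Bcl2* to *Mcl1* ratio per kb ran from 0.334 to 1.04 in WT LSKs and from 0.751 to 2.92 in WT GMPs. Exons of *Bak1*, *Bax* and *Bcl2* overlap other genes, which had at most 492 counts against 22071 or more for these members, and strand was not kept. The labels do not say what the numbers stand for.

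**Figure D5:**
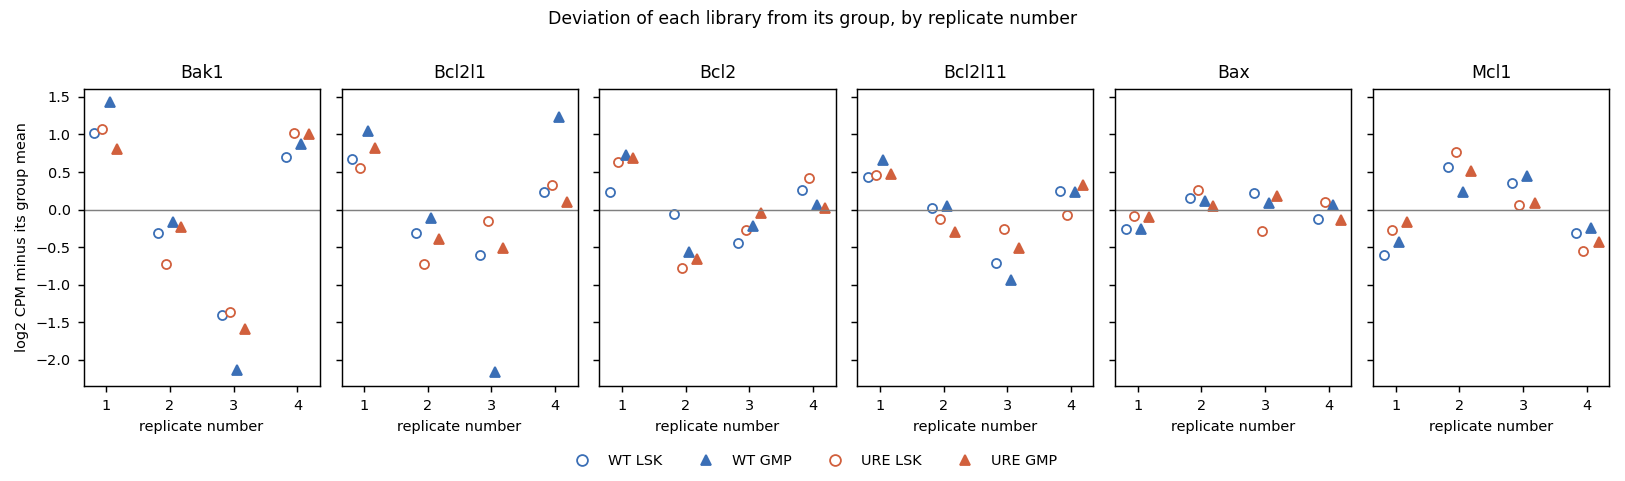
Log2 CPM of each library minus the mean of its group, against the replicate number, for 6 members; open circles are LSKs, filled triangles GMPs, WT in blue and URE in orange. In all 4 groups replicates 1 and 4 lie above replicates 2 and 3 for Bak1, Bcl2l1, Bcl2 and Bcl2l11 and below them for Mcl1, while Bax changes little.

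Beyond the 10 members, 16 further genes of the family were listed, and 11 of them passed the filter in LSKs and in GMPs. In URE LSKs 1 rose and 1 fell (2 of 11, beside 6.14% of all genes), and in URE GMPs 2 fell and 0 rose (2 of 11, beside 8.30%). *Bcl2l14*, a family member of unsettled role, fell in both: it had 0.682, 0.335, 0.167 and 0.343 CPM in URE against 8.99, 9.41, 8.04 and 6.49 CPM in WT LSKs (log2 fold change -4.46, standard error 0.44; edgeR, adjusted p = 0.00048), and 0.0481 to 0.502 CPM in URE against 3.74 to 4.595 CPM in WT GMPs (-3.93, standard error 0.59; edgeR, adjusted p = 0.0038). Among GMP replicates 2 and 3 alone it was -3.25 and missed the threshold (edgeR, adjusted p = 0.089; 7.8e-13 to 0.089 over the alternatives). *Bok*, an effector relative that is held down mainly by degradation of its protein, had 38.3, 17.1, 19.6 and 36.0 CPM in URE LSKs and 7.12 to 7.42 CPM in the 4 WT LSKs. It rose by a log2 fold change of 1.89 (standard error 0.29; edgeR, adjusted p = 0.0050), with 2.29 among replicates 1 and 4 alone and 1.32 among replicates 2 and 3 alone, where it missed the threshold (edgeR, adjusted p = 0.19; 1.1e-07 to 0.19 over the alternatives). It did not pass in GMPs (0.77, edgeR, adjusted p = 0.33), a difference between cell types that did not pass either (interaction -1.15, edgeR, adjusted p = 0.34).

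Noxa is the BH3-only partner of Mcl1 and a p53 target like Puma. Its gene, *Pmaip1*, had 1.35, 2.61, 1.005 and 1.37 CPM in URE GMPs and 6.55, 6.91, 7.55 and 10.7 CPM in WT GMPs, and had a log2 fold change of -2.31 (standard error 0.36; edgeR, adjusted p = 0.0048). Among replicates 2 and 3 alone it was -1.98 and missed the threshold (edgeR, adjusted p = 0.24; 3.3e-08 to 0.24 over the alternatives). It thus went down in the group in which *Bbc3* went up. In LSKs it had 0 to 22 counts in URE and 34 to 56 in WT, without overlap but with a log2 fold change (-1.70, standard error 0.76) that did not pass (edgeR, adjusted p = 0.33). *Bid*, the BH3-only link from death receptors to mitochondria, had 122 to 150 CPM in URE and 193 to 226 CPM in WT GMPs; its adjusted p was 0.040 (edgeR), but its log2 fold change of -0.55 was below the fold change a call needs. Its exons share 628 bases with *Bcl2l13* on the other strand, and the libraries do not keep the strand.

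*Bmf*, a BH3-only gene, had 4.86, 1.20, 0.402 and 2.96 CPM in URE GMPs and 1.01, 0.257, 0 and 0.397 CPM in WT GMPs, higher in the URE library in 4 of 4 pairs. Its log2 fold change was 2.50 (standard error 0.97) without the block, which did not pass (edgeR, adjusted p = 0.18), and 2.64 with it, which did (adjusted p = 0.0072). *Bad*, *Bcl2l2* (Bcl-w), *Bcl2l12*, *Bcl2l13*, *Bnip3* and *Bnip3l* did not pass in either cell type, with log2 fold changes between -0.37 and 0.44. From LSKs to GMPs of WT, *Bid* (1.09) and *Pmaip1* (2.34) rose while *Bok* (-1.76), *Bmf* (-2.91) and *Bcl2l14* (-0.96) fell, and in URE mice *Bok* (-2.94) fell (log2 fold changes by edgeR). *Bad* passed narrowly in URE mice (0.65, edgeR, adjusted p = 0.0498), and its call was lost with the Y-linked covariate (0.052), without a filter (0.12) and among replicates 2 and 3 alone (0.29), over a range of 0.0088 to 0.29. *Bcl2l13* had a log2 fold change of 0.71 in URE mice, which did not pass (edgeR, adjusted p = 0.31), and rose with the block (0.74, adjusted p = 0.0090) and among replicates 1 and 4 alone (0.71, adjusted p = 0.025), over a range of 0.0090 to 0.35. *Bcl2l10* and *Hrk* had 0 counts in all libraries, and *Bik* and *Bcl2l15* had at most 9 counts in any.

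Genes that act downstream of the mitochondrion were counted next. This list held 18 genes, among them Apaf1, caspases, inhibitors of apoptosis, voltage-dependent anion channels and nucleases. All were tested, and edgeR called 0 in LSKs and 0 in GMPs. It called 6.14% and 8.30% of all genes, so that the counts are near the background. Median log2 fold changes were 0.07 and 0.04, beside 0.00 and 0.01 for all genes. At an unadjusted p under 0.05 there were 4 and 1, beside 15.3% and 20.3% of all genes, DESeq2 called 0 in both, and with the block 1 rose in each cell type. The fit with the block called 9.46% of all genes in LSKs and 16.3% in GMPs. From LSKs to GMPs of WT, where 27.3% of all genes were called, 5 rose and 3 fell, with *Cycs*, the gene of cytochrome c, among the genes called. Of 10 genes of the p53 axis, edgeR called 0 in LSKs (2 at an unadjusted p under 0.05, and 1 by DESeq2; with the block 1, *Cdkn1a*, fell), and 1 of 9 tested rose in GMPs. This was *Trp53inp1*, a p53 target, with 17.1, 21.7, 21.2 and 21.6 CPM in URE and 12.7, 14.3, 8.37 and 9.84 CPM in WT GMPs (log2 fold change 0.88, standard error 0.21; edgeR, adjusted p = 0.035). The 4 genes for the turnover of Mcl1 had 0 calls by edgeR and by DESeq2 in both cell types, and 0 at an unadjusted p under 0.05; with the block 1 fell in GMPs.

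Cytokine survival signalling maintains *Bcl2*, *Bcl2l1* and *Mcl1* in many blood cells. The list of its genes, with receptors, kinases and other genes of the pathway, numbered 20. In LSKs 1 rose and 1 fell, beside 6.14% of all genes called, and with the block 1 rose and 2 fell, beside 9.46%. *Pim2*, a survival kinase, had 191, 121, 133 and 110 CPM in URE and 61.5, 48.0, 27.5 and 81.4 CPM in WT LSKs (log2 fold change 1.31, standard error 0.32; edgeR, adjusted p = 0.040). *Flt3*, a receptor of multipotent progenitors, fell by 1.67 in LSKs (standard error 0.38; edgeR, adjusted p = 0.030) and by 2.78 in GMPs (standard error 0.43; edgeR, adjusted p = 0.0045). In GMPs 3 of 20 fell and 0 rose, beside 8.30% of all genes called. With the block the same 3 fell and 2 rose, the receptor genes *Csf3r* and *Il3ra*, beside 16.3% of all genes. Beside *Flt3* the genes that fell were *Csf2ra*, the GM-CSF receptor chain, with 10.4 to 23.9 CPM in URE and 57.2 to 70.4 CPM in WT GMPs (log2 fold change -1.95, edgeR, adjusted p = 0.0027), and *Il6st*, the shared receptor chain gp130, with 4.47 to 13.1 CPM against 32.7 to 184 CPM (-3.36, edgeR, adjusted p = 0.0056).

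Among 9066 genes of at least 3 log2 CPM on average, those whose log2 CPM ran most like that of *Bcl2* over the 16 libraries included *R3hdm1* (Pearson r = 0.87), *Abcf1* (0.86), *Rrp1b* (0.85) and *Gsdme* (0.83). For the summed A1 copies they were *Lgmn* (0.92), *Yju2* (0.85), *Cop1* (0.85), *Khk* (0.85) and *Trex1* (0.85). These values describe 16 libraries of 4 groups that share depth, replicate number and genotype, and no p is given.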

How the data were processed

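Counts per gene were deposited by the authors in 1 table, not normalized and as whole numbers, for 54347 genes of 16 libraries. Per the labels and methods they come from salmon estimates on GRCm38 summed per gene; the annotation release for these libraries is not given in the sources used here. Libraries were unstranded, polyA-selected, made from at most 10 ng of RNA and without molecular identifiers, so precision stated from counts covers counting error only. Total counts were 20028302 to 29128858 per library, and p-values measure the spread between 4 mice per group.

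Members and gene lists were chosen with earlier results of these data known. Each comparison was fitted across all genes with edgeR 4.0.16 (R 4.3.3): filterByExpr, TMM, quasi-likelihood test, Benjamini-Hochberg adjustment over all genes tested. Calls needed a false discovery rate under 0.05 together with more than 1.5-fold change (the interaction over 16 libraries needed the former only), the thresholds of the study's methods, which used DESeq2. For exact permutation tests, CPM were taken to log2 after adding a prior count of 2. Replicate numbers come from the labels. Deviations from the group means of same-numbered libraries correlated in every pair of every comparison (r from 0.28 to 0.77 across genes). The main fits and the permutation tests did not use the numbers, and a fit with them as a block was an alternative. Libraries numbered 1 and 4 also correlated with each other (replicate 4 with 1, r = 0.43 in LSKs and 0.48 in GMPs, against 0.30 and 0.28 for 4 with 4), as did 2 with 3. The fit with the replicate number as a block is given for the members wherever it changes a call. Other alternatives were DESeq2 1.42.0, RLE size factors, no filter, at least 20 counts per library of a group, 1 joint fit, summed A1 copies, Y-linked level as a covariate, fits within replicates 1 and 4 and within 2 and 3, no minimum fold change, and leaving out each library. The fits were tested on simulated counts.

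Named genes were the members, *Spi1*, tested family genes, at most 4 called genes per further list and genotype comparison with the smallest adjusted p, and the 5 genes most like *Bcl2* and the A1 sum, of which 1 is not reported here. *Cycs* and the marker genes named singly were chosen after their values were seen. Lengths and coordinates come from GENCODE M21 (GRCm38), which holds 54094 of the identifiers; promoters come from RefSeq (GRCm38.p6), with an entry for all 10 members. Plots were drawn with matplotlib 3.10.9.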

Additional observations from a re-analysis of the deposited data

Results flagged for a closer look

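Among 43 sets of 4 libraries (each member, and the A1 sum, in each group), 2 held a library that stood apart by Dixon's ratio, the gap to the nearest library over the whole range; about 1 in 20 would do so by chance. These were *Bcl2a1b* in URE LSK replicate 3 (ratio 0.924; 1.71 CPM, the other three 0.814 to 0.882) and *Bax* in WT GMP replicate 1 (ratio 0.831; 90.4 CPM, the other three 113 to 117).

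In edgeR, the interaction term of genotype and cell type passed for 3 members with the replicate block and for 0 without it. With the block, the interaction was -1.52 on the log2 scale for *Bcl2* and 1.86 for *Bbc3*. The adjusted p was 0.033 for *Bcl2a1d* (edgeR with Benjamini-Hochberg adjustment), whose counts are 0 in URE LSKs. DESeq2 called the same 3 members without the block (adjusted p = 0.032 for *Bcl2*, 0.0068 for *Bbc3* and 0.013 for *Bcl2a1d*).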

How the results depend on the processing

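No called member changed sign under any alternative; of the values of single members under alternatives, 832 kept direction and side of the threshold, 21 passed it newly, 12 lost it and 68 uncalled values changed sign. The cause was not tested where a call moved.

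The count of members called in LSKs (1) was 0 with at least 20 counts asked and 0 with summed A1 copies, in both of which *Bcl2a1d* is not tested, and 2 within replicates 1 and 4. In GMPs (1) it was 2 by DESeq2, 3 with the replicate block, 0 with the Y-linked covariate, 0 within replicates 2 and 3, and 0 to 1 with a library left out (0 without URE GMP replicate 1 or 4 or WT GMP replicate 2 or 4). From LSKs to GMPs it was 3 for WT (2) with the replicate block, 3 within replicates 1 and 4, 1 within replicates 2 and 3 and 1 to 2 with a library left out, and for URE (0) it was 1 by DESeq2, 2 with the replicate block, 2 in the joint fit and 2 within replicates 1 and 4. For the interaction (0) it was 3 by DESeq2, 3 with the replicate block and 0 to 1 with a library left out.

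Uncalled log2 fold changes that turned sign with the replicate block were *Bak1* in LSKs (-0.020), *Bcl2l1* in GMPs (0.20), *Bcl2a1b* from LSKs to GMPs of URE (-0.11), and *Bcl2a1b* (-0.10) and *Bak1* (0.17) for the interaction. Within replicates 1 and 4 these were *Bcl2l1* in LSKs (-0.014), *Bak1* in GMPs (-0.076), *Bcl2l1* (0.10) and *Bcl2a1d* (0.11) in WT, *Bcl2a1b* in URE (-0.012) and for the interaction (-0.51). Within replicates 2 and 3 they were *Bax* (-0.11) and *Bak1* (-0.24) in LSKs, *Bcl2l1* in GMPs (0.64), *Bcl2a1b* in WT (-0.086), and *Bcl2l1* (0.54) and *Bak1* (0.56) for the interaction. *Bcl2a1b* for the interaction was -0.019 by DESeq2, -0.019 with RLE size factors and -0.016 without a filter.

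With a library left out, ranges that crossed 0 were, in LSKs, *Bcl2l1* -0.16 to 0.30, *Mcl1* -0.50 to 0.018, *Bax* -0.048 to 0.14 and *Bak1* -0.29 to 0.42. In GMPs they were *Bcl2l1* -0.51 to 0.27, *Bak1* -0.35 to 0.54 and *Bcl2l11* -0.17 to 0.31. From LSKs to GMPs they were, in WT, *Bcl2l1* -0.60 to 0.18, *Bcl2a1b* -0.040 to 0.33 and *Bcl2a1d* -0.41 to 0.028, and in URE *Bcl2a1b* -0.62 to 0.47. For the interaction they were *Bcl2l1* -0.55 to 0.20, *Mcl1* -0.38 to 0.16, *Bcl2a1b* -0.71 to 0.35 and *Bak1* -0.42 to 0.44.

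Depth limits the A1 copies and *Bbc3*, which had at most 84 counts in any library, and single A1 copies depend on how reads were shared among near-identical transcripts.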
